A study of Mus musculus with 7 samples.

Results

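Supporting cells of the neonatal mouse cochlea treated with trichostatin A (TSA) were compared with cells given the solvent, DMSO. The comparison rested on 4 of the 7 libraries of the study, 2 labelled DMSO and 2 labelled TSA, chosen by their treatment label. All 7 came from mouse cochleae at postnatal day 1, kept as whole organ cultures in serum-free medium with EGF and FGF. The organs received 200 nM TSA or a matched volume of DMSO for 48 h and were dissociated with trypsin, after which GFP-positive supporting cells were sorted. The other 3 libraries came from organs given 10 µM GSK-343, an inhibitor of the histone methyltransferase EZH2, and their levels are given beside the comparison. The mouse strain and the reporter that carries GFP are not given in the sources used here. Nor is it stated whether replicates came from different animals or cultures. The p-values therefore reflect only how far these samples spread, and that spread may be technical. Of the 48709 genes in each deposited table, the 21145 nuclear protein-coding genes longer than 500 bases were kept, and 13050 of these had enough counts to be tested.

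TSA is a hydroxamic acid that blocks the zinc-dependent histone deacetylases of classes I, II and IV. These enzymes remove acetyl groups from lysines of histones and other proteins, mostly within co-repressor complexes such as NuRD, SIN3 and CoREST. Acetyl-lysine is written by acetyltransferases such as CBP and read by bromodomain proteins, and inhibitors of deacetylases raise the transcription of some genes and lower that of others. Supporting cells surround the sensory hair cells of the organ of Corti, share a progenitor with them, and in the neonatal mouse retain a limited capacity to divide or to become hair cells.

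The DMSO and TSA libraries differed in more than their treatment. Read layout can be read from the gap between gene length and effective length, whose median was 49 bases with DMSO, 210.24 and 208.21 bases with TSA and 209.95 to 212.69 bases with GSK-343. Total expected counts were 5974230 and 5124247 for DMSO and 2724381 and 2963228 for TSA, and the genes analysed took 62.3% and 63.2% of them with DMSO and 85.3% and 78.0% with TSA. Genes detected among the 21145 numbered 16193 and 17590 with DMSO and 14909 and 14515 with TSA. Between 50.0% and 53.9% of the counts above 0 of these genes were not whole in the DMSO libraries and 9.50% and 10.1% in the TSA libraries, so reads shared between genes were more frequent with DMSO. Read layout and treatment cannot be told apart between DMSO and TSA. Between TSA and GSK-343 the layout is shared.

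With TSA, 1717 genes were higher and 1861 were lower than with DMSO at a Benjamini-Hochberg adjusted p under 0.05 in edgeR's quasi-likelihood test, which is 13.2% and 14.3% of the 13050 genes tested and 27.4% in either direction. Most of the called changes were large, with a median absolute log2 fold change of 2.21, and 542 higher and 522 lower genes had changed at least 8-fold. The median log2 fold change over all tested genes was -0.017 and the median standard error was 0.56. A total of 100 called genes had no count in either DMSO library and 204 had none in either TSA library. With 2 libraries per group, both TSA libraries lay above both DMSO libraries in 4364 tested genes and below both in 4463. Groups that do not overlap were thus common over all genes. The split between higher and lower genes depended on the scaling. Scaling by total counts moved the median of all genes to 0.37 and gave 2533 higher and 1284 lower genes, and limma on log2 TPM moved it to 0.86 and gave 4717 higher and 1029 lower genes. Below, the median of a gene list is therefore also given minus the median of all genes, under each of these 3 scalings in that order. Every list count is to be read against the 13.2% of all genes that rose and the 14.3% that fell. Brackets after a list count give the rises and falls with DMSO replicate 1, DMSO replicate 2, TSA replicate 1 and TSA replicate 2 left out in turn, and then under total-count scaling and in limma on log2 TPM, where most calls over all genes were higher. Of the called genes, 2729 had a count that was not whole in at least 1 DMSO library. The 3453 tested genes with whole counts in all libraries gave 304 higher and 314 lower calls.

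**Figure D1:**
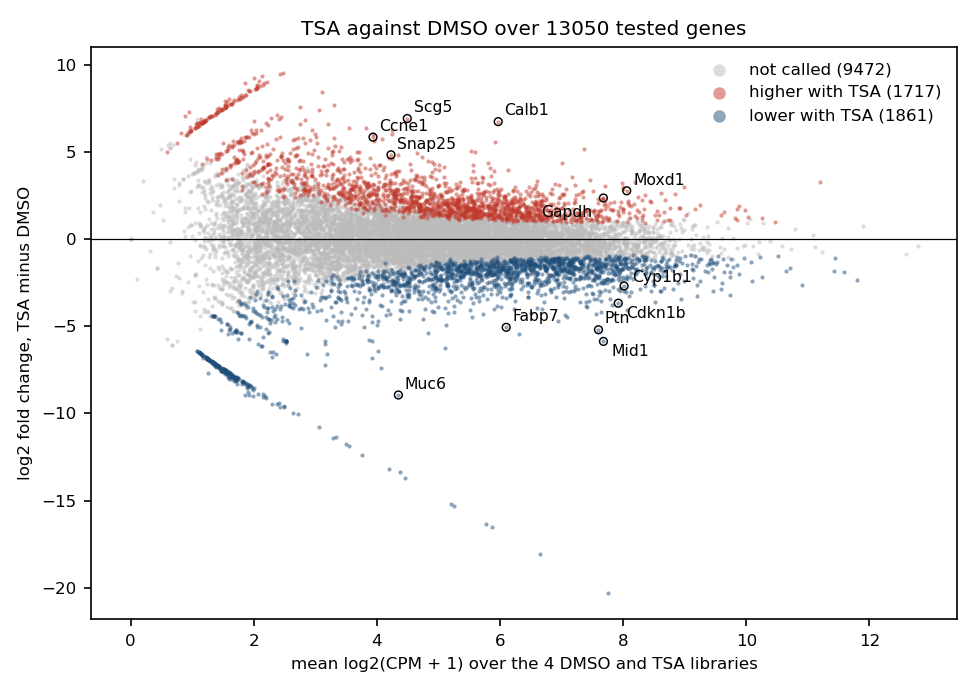
Log2 fold change of TSA minus DMSO (y axis) against mean log2(CPM + 1) over the 4 libraries (x axis) for the 13050 tested genes, with 1717 genes called higher in red, 1861 called lower in blue and the others in grey. Circles mark 12 genes described in the text, and the slanting rows of points at the left are genes with no count in 1 of the groups, whose fitted folds are not bounds.

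Scg5, Calb1, Rims3, Mapk13, Itm2a and Snap25 were among the 12 largest rises with TSA. Values are CPM, TMM-normalised counts scaled per library total, in replicate order, and fold changes are on the log2 scale, TSA minus DMSO, followed by their standard error. In DMSO replicates 1 and 2, 3 counts equal 0.886 and 1.03 CPM. Fold changes from DMSO levels near or below these rest on few counts and are imprecise, as for Gfi1, Chga, Scn3b, Ccne1 and Bid below. Scg5, which encodes the 7B2 chaperone of neuroendocrine granules, measured 1.48 and 1.72 CPM with DMSO and 175 and 217 CPM with TSA, a log2 fold change of 6.91 ± 0.51 (adjusted p = 1.51e-05). Calb1, the calcium buffer calbindin, rose from 5.61 and 6.89 to 1045 and 283 CPM (6.73 ± 0.99, adjusted p = 0.000745). The TSA libraries differed from each other in Calb1 more than the DMSO libraries did, and its fold change was 5.56 without TSA replicate 1 and 7.41 without TSA replicate 2. Rims3, an active-zone scaffold protein of synapses, measured 2.07 and 1.72 CPM with DMSO and 141 and 107 CPM with TSA (5.999 ± 0.80, adjusted p = 0.000434). Scg5 had only 5 counts in each DMSO library and Rims3 had 7 and 5, so the size of their folds is imprecise. Snap25, a SNARE protein of regulated exocytosis, went from 2.07 and 4.13 to 95.3 and 80.8 CPM (4.82 ± 0.68, adjusted p = 0.000586). The rule for naming required both TSA libraries to lie above both DMSO libraries. In all 4 genes they also lay above all 3 GSK-343 libraries, where Scg5 measured 46.6, 34.9 and 45.7 CPM and Snap25 15.9, 5.201 and 13.7 CPM. TSA minus GSK-343 was 2.21 ± 0.33 for Scg5 (adjusted p = 0.00447), 2.92 ± 0.52 for Snap25 (adjusted p = 0.00759) and 1.75 ± 0.54 for Rims3, where the adjusted p was 0.0534.

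Other genes with large rises were the p38 delta kinase gene Mapk13, Itm2a, which encodes a type II membrane protein, and Cdc25b, a phosphatase that activates cyclin-dependent kinases. Mapk13 rose from 6.496 and 10.7 to 320.1 and 478 CPM (5.54 ± 0.47, adjusted p = 2.94e-05). Itm2a rose from 8.86 and 7.23 to 265 and 248 CPM (4.98 ± 0.46, adjusted p = 4.8e-05). In the GSK-343 libraries both lay between the other groups, at 159, 110.5 and 101 CPM for Mapk13 and 110.0, 74.3 and 58.5 CPM for Itm2a. Cdc25b went from 2.95 and 7.58 to 192 and 74.9 CPM (4.67 ± 0.66, adjusted p = 0.000587). It reached 211, 80.2 and 176 CPM with GSK-343, so its TSA and GSK-343 libraries overlapped. Without DMSO replicate 2 its fold change was 5.49 and without TSA replicate 1 it was 3.90. Bloc1s5, a subunit of the BLOC-1 complex of lysosome-related organelles, likewise rose from 4.13 and 2.75 to 63.5 and 136 CPM (4.83 ± 0.57, adjusted p = 0.000198; 4.20 without TSA replicate 2) with 61.7, 108 and 106 CPM under GSK-343. The ribosomal protein gene Rpl27 (log2 fold change 5.16) and Fam205a4 (4.95, from 3.998 to 12.14 with 1 DMSO library left out), of a multigene family, also rose but can share reads with near copies, so their values are uncertain.

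Muc6, Mid1, Msi1, Ptn and Fabp7 were among the 12 largest falls with TSA. Ptn, which encodes the secreted growth factor pleiotrophin, measured 994 and 1339.8 CPM with DMSO and 28.9 and 34.5 CPM with TSA (-5.200 ± 0.40, adjusted p = 1.51e-05). Fabp7, a brain-type fatty acid binding protein and a marker of supporting cells, fell from 397 and 417 to 18.4 and 5.88 CPM (-5.06 ± 0.55, adjusted p = 0.000138). The RNA-binding protein gene Msi1 fell from 545 and 573 to 20.9 and 4.78 CPM (-5.44 ± 0.60, adjusted p = 0.000139). All 3 were also lower in both TSA libraries than in the GSK-343 libraries, which measured 109, 160.3 and 128 CPM for Ptn, 80.4, 41.3 and 48.8 CPM for Fabp7 and 44.4, 66.4 and 37.4 CPM for Msi1. Inhba, the activin beta A subunit, fell from 465 and 881 to 41.1 and 19.104 CPM (-4.48 ± 0.52, adjusted p = 0.000191), with 108, 87.5 and 53.9 CPM under GSK-343. Phlda1, a pleckstrin-homology-like protein, fell from 679.7 and 554 to 42.6 and 18.4 CPM (-4.34 ± 0.50, adjusted p = 0.000177). Masp1, a serine protease of the lectin pathway, fell from 192 and 181 to 8.66 and 3.31 CPM (-4.95 ± 0.55, adjusted p = 0.000139). For each of these genes except Ptn the lower TSA library was replicate 2. The fold changes without TSA replicate 1 were -6.05 for Fabp7, -6.80 for Msi1, -5.08 for Inhba, -5.01 for Phlda1 and -5.75 for Masp1. Without TSA replicate 2 those of Fabp7 and Msi1 were -4.44 and -4.71.

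Others of the largest falls were also lower with GSK-343 than with DMSO. The gel-forming mucin gene Muc6 measured 262 and 315 CPM with DMSO, 1.08 and 0 CPM with TSA and 0.705, 1.84 and 0 CPM with GSK-343. Its TSA total was no more than 3 counts, so its fitted fold change depends on the prior count and is not given. Mid1, an E3 ubiquitin ligase that binds microtubules, fell from 1569.9 and 1542 to 31.8 and 21.3 CPM (-5.87 ± 0.44, adjusted p = 1.51e-05). It measured 18.7, 33.7 and 30.8 CPM with GSK-343, and TSA minus GSK-343 was -0.07 ± 0.35 (adjusted p = 0.928). Srcap, the ATPase that exchanges the histone variant H2A.Z, fell from 601 and 627 to 26.3 and 21.3 CPM (-4.69 ± 0.84, adjusted p = 0.00203), with 3.17, 55.4 and 17.1 CPM under GSK-343. The zinc-finger gene Prdm12 fell from 126 and 73.0 to 6.86 and 1.47 CPM (-4.56 ± 0.78, adjusted p = 0.0016), with 11.6, 34.9 and 11.7 CPM under GSK-343. Spaca6, a sperm membrane protein gene, fell from 171 and 339 to 19.8 and 2.94 CPM (-4.48 ± 0.84, adjusted p = 0.00261), with 3.53, 19.9 and 6.28 CPM under GSK-343. Their fold changes ranged from -5.99 without TSA replicate 1 to -3.83 without TSA replicate 2 for Prdm12 and from -6.36 to -3.65 for Spaca6. Adnp, a homeobox-containing chromatin protein gene, met the rule for naming at -5.39 ± 1.76 (adjusted p = 0.0367). Its adjusted p was 0.121 without TSA replicate 1, 0.0948 and 0.0888 without DMSO replicate 1 and 2 and 0.081 in limma on log2 TPM. Without TSA replicate 2 its fitted fold change moved to -12.49 (adjusted p = 0.0329), with no count in the TSA library that remained. Adnp measured 225 and 239 CPM with DMSO, 0 and 11.02 CPM with TSA and 124, 4.895 and 0 CPM with GSK-343.

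**Figure D2:**
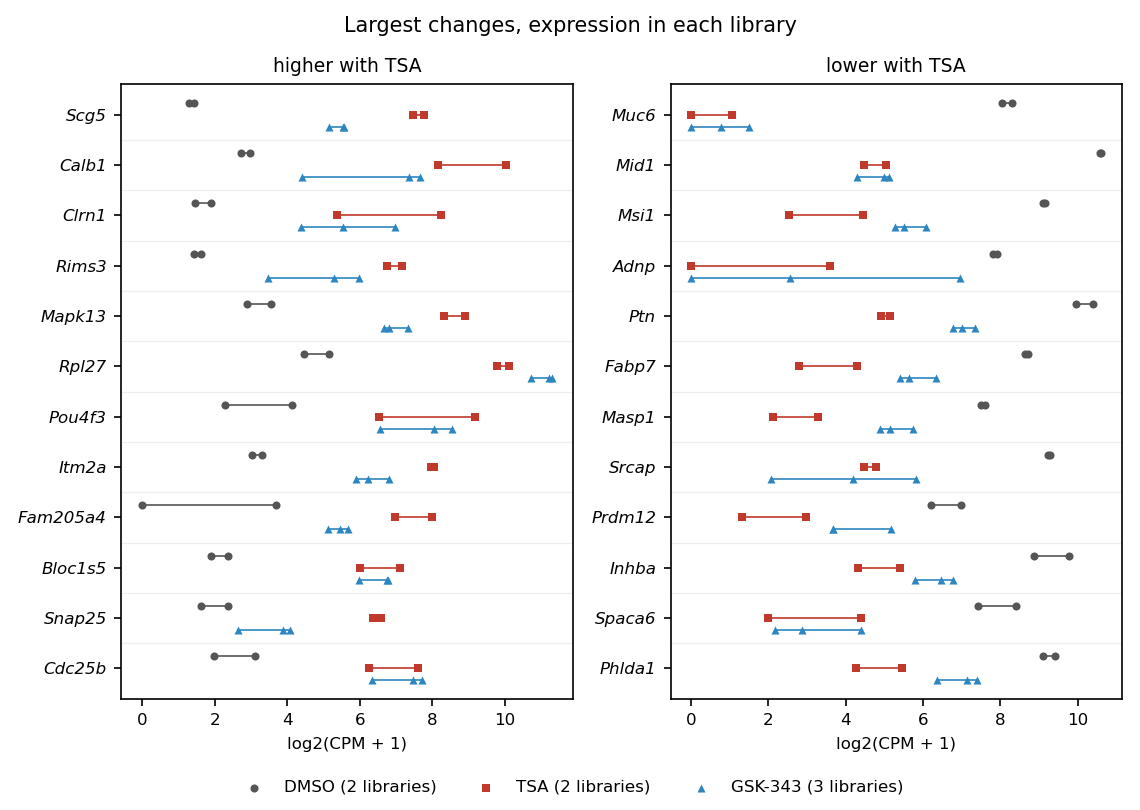
Expression of the 12 genes with the largest rise (left) and the 12 with the largest fall (right) with TSA among genes of sufficient level, as log2(CPM + 1), with 1 symbol per library and a line over the range of each group. DMSO circles and TSA squares do not overlap in any row, since the rule for naming required it; GSK-343 triangles lie with TSA for Mid1, Cdc25b and Bloc1s5 and between the groups for Scg5, Ptn and Masp1.

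Some genes differed with TSA while their GSK-343 level stayed within 2-fold of DMSO and on the DMSO side of both TSA libraries. The GSK-343 values chose these genes and are given as a description. Among those that rose, Moxd1, a copper-dependent monooxygenase related to dopamine beta-hydroxylase, measured 95.4 and 110.2 CPM with DMSO, 574 and 820.0 CPM with TSA and 194, 192 and 155 CPM with GSK-343 (TSA minus DMSO 2.76 ± 0.35, adjusted p = 0.000315). Ndrg4, an alpha/beta-hydrolase-fold protein of neurons and heart, rose from 18.9 and 29.3 to 132 and 133 CPM (2.46 ± 0.42, adjusted p = 0.0016) and measured 18.3, 21.7 and 17.4 CPM with GSK-343. Gpsm2, the LGN protein that orients mitotic spindles and shapes hair bundles, rose from 38.1 and 42.4 to 235 and 202 CPM (2.44 ± 0.36, adjusted p = 0.000711), with 74.8, 82.0 and 69.1 CPM under GSK-343. In these 3 genes both TSA libraries lay clear of every other library, as the rule for naming required. Sv2a, a synaptic vesicle glycoprotein, rose from 5.02 and 8.95 to 96.4 and 48.9 CPM (3.38 ± 0.60, adjusted p = 0.00196). Mest, an imprinted gene of the hydrolase family, rose from 38.4 and 52.3 to 262 and 152 CPM (2.19 ± 0.39, adjusted p = 0.00208). Aass, an enzyme of lysine degradation, rose from 1.18 and 5.85 to 83.7 and 88.2 CPM (4.62 ± 0.81, adjusted p = 0.00184). Nid1, the basement membrane protein nidogen, went from 3.54 and 14.5 to 93.5 and 115 CPM (3.54 ± 0.64, adjusted p = 0.00214). Both started from low and unequal DMSO levels, so their fold changes moved to 3.88 and 2.85 without DMSO replicate 1 and to 6.14 and 4.87 without DMSO replicate 2. Svip, an inhibitor of ER-associated degradation, Adgra3, an adhesion G-protein-coupled receptor, and Osbpl3, an oxysterol-binding protein, completed the set with log2 fold changes of 2.46, 1.84 and 2.33.

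Among the genes that fell, Cyp1b1, a cytochrome P450 induced through the aryl hydrocarbon receptor, measured 681 and 629 CPM with DMSO, 96.4 and 106 CPM with TSA and 667, 639.8 and 418 CPM with GSK-343 (TSA minus DMSO -2.69 ± 0.35, adjusted p = 0.000404). Efhd1, a calcium-binding protein of mitochondria, fell from 1295 and 1193 to 219.8 and 117 CPM (-2.89 ± 0.41, adjusted p = 0.000589), with 1387, 2280.3 and 2357 CPM under GSK-343. Nr4a3, an orphan nuclear receptor of the immediate early class, fell from 437 and 431 to 70.7 and 51.4 CPM (-2.83 ± 0.38, adjusted p = 0.000435), with 775, 442 and 719.9 CPM under GSK-343. For all 3 the TSA libraries were several-fold below every other library. Ttyh1, a tweety-family membrane protein of glia, fell from 1019.8 and 1127 to 169 and 136 CPM (-2.81 ± 0.33, adjusted p = 0.000199). Hey1, a basic helix-loop-helix repressor downstream of Notch and FGF signals, fell from 1297 and 1008 to 247 and 155 CPM (-2.52 ± 0.36, adjusted p = 0.000586). Col11a2, a collagen of cartilage and of the tectorial membrane, fell from 441 and 654 to 68.6 and 54.4 CPM (-3.15 ± 0.45, adjusted p = 0.000586). The peptide transporter gene Slc15a2, the extracellular EMI-domain gene Emid1, the translation factor gene Ctif and the vesicle-trafficking GTPase gene Rab8b fell by 3.17, 3.57, 2.998 and 2.44 on the log2 scale. Without TSA replicate 1 the first 3 of these were -3.76, -4.15 and -3.68.

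**Figure D3:**
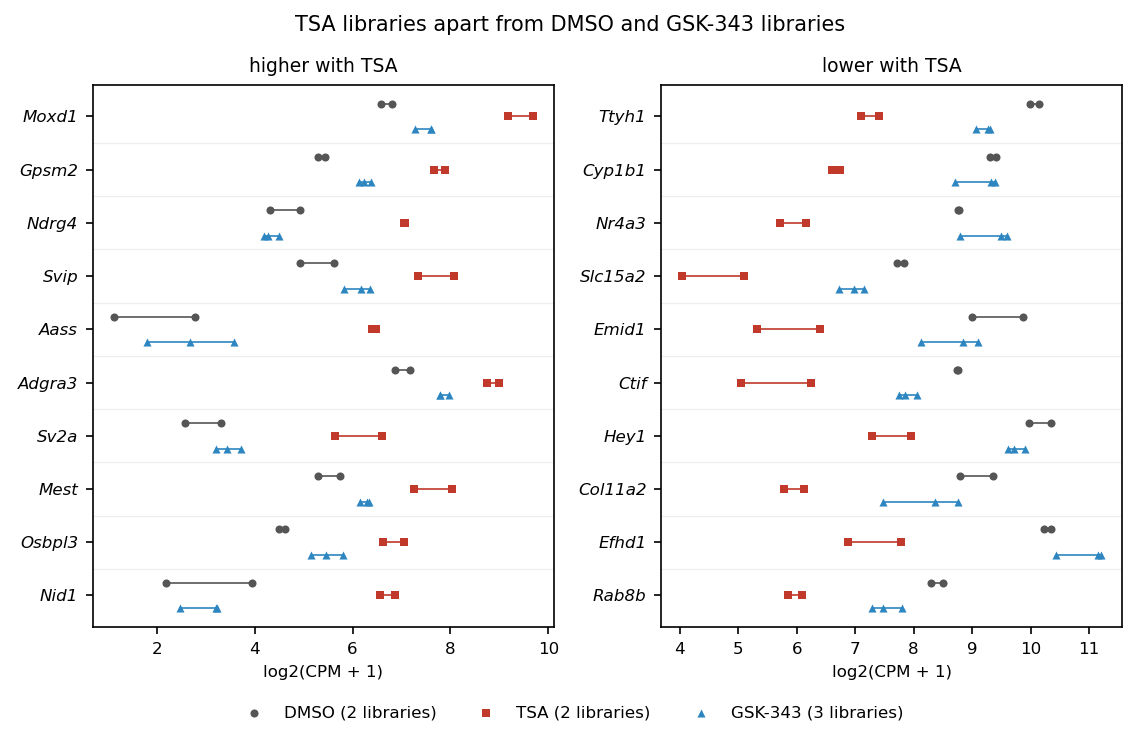
Expression as log2(CPM + 1) in each library of the 10 genes higher (left) and the 10 genes lower (right) with TSA whose GSK-343 level was within 2-fold of DMSO. TSA squares stand apart from DMSO circles and GSK-343 triangles in every row, as the rule for naming required; Cyp1b1 measured 96.4 and 106 CPM with TSA and at least 418 CPM elsewhere.

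Since deacetylase inhibitors act on chromatin, the sequence upstream of the start site is printed for 2 of the genes that rose (Moxd1 and Rims3) and 2 that fell (Cyp1b1 and Efhd1). Each is the 250 bases before the start in the RefSeq table for GRCm38.p6, written 5′ to 3′ on the strand of the gene, and lies outside the gene as annotated in GENCODE M21. Capitals mark GC boxes (GGGCGG, or CCGCCC on the other strand, with overlapping copies counted). The windows are chr10:24223267-24223516 on the plus strand for Moxd1, chr4:120854549-120854798 on the plus strand for Rims3, chr17:79715062-79715311 on the minus strand for Cyp1b1 and chr1:87264103-87264352 on the plus strand for Efhd1.
Moxd1: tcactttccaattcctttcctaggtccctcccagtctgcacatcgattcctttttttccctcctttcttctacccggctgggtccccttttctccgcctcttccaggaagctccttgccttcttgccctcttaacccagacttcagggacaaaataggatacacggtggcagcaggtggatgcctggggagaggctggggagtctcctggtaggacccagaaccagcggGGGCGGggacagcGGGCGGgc
Rims3: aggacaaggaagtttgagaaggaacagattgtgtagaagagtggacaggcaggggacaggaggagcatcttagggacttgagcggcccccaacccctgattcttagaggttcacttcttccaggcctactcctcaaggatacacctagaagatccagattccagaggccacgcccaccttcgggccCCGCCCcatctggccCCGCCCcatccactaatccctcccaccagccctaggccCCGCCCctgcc
Cyp1b1: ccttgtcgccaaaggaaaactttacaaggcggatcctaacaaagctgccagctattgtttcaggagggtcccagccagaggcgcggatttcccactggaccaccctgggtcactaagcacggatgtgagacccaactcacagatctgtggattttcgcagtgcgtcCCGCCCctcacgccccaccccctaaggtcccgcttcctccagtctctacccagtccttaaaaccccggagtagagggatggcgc
Efhd1: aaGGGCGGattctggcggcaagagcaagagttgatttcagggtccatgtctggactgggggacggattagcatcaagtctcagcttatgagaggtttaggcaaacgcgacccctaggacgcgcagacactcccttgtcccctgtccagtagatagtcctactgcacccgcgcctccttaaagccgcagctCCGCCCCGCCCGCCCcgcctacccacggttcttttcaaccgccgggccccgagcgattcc
The windows held 2 GC boxes in Moxd1, 3 in Rims3, 1 in Cyp1b1 and 4 in Efhd1, and no TATA box (TATAAA, or TTTATA on the other strand) in any of the 4. A promoter was matched by symbol for 10260 of the 13050 tested genes, taking the first start listed per gene, and 60.02% of these held a GC box and 6.20% a TATA box. Among the 1342 matched genes higher with TSA the shares were 64.6% and 5.44%, and among the 1425 lower with TSA 53.7% and 9.19%. The fallen genes thus held a GC box less often and a TATA box more often than the risen ones, as a description with no test.

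Of the 11 zinc-dependent histone deacetylase genes tested, Hdac3 was higher and Hdac2 and Hdac9 were lower with TSA, a share near the 27.4% called over all genes. Of the 4 class I genes, Hdac2 measured 197 and 213 CPM with DMSO and 69.6 and 83.0 CPM with TSA (-1.42 ± 0.35, adjusted p = 0.00987). Hdac3 measured 60.2 and 64.4 CPM and 158 and 152 CPM (1.32 ± 0.33, adjusted p = 0.0114). Hdac1 measured 95.4 and 66.5 CPM and 98.9 and 112 CPM (0.38 ± 0.42, adjusted p = 0.534) and Hdac8 had an adjusted p of 0.784. The GSK-343 libraries lay on the TSA side for Hdac2, at 54.7, 48.0 and 48.2 CPM, and for Hdac3, at 189, 225 and 193 CPM. Of the 7 class II and IV genes only Hdac9, a class IIa deacetylase, was called, at 103 and 87.1 CPM with DMSO and 26.0 and 23.5 CPM with TSA (-1.94 ± 0.52, adjusted p = 0.0157). These 3 calls were lost with single libraries left out, with an adjusted p for Hdac2 of 0.0541 without DMSO replicate 2 and 0.0954 and 0.0556 without TSA replicate 1 and 2. It was 0.0798 and 0.0602 for Hdac3 without DMSO replicate 1 and 2. For Hdac9 it was 0.0775 without DMSO replicate 1 and 0.0663 and 0.0968 without TSA replicate 1 and 2. In limma on log2 TPM the adjusted p was 0.0704 for Hdac2 and 0.388 for Hdac9. Among 24 subunits of deacetylase co-repressor complexes, 5 rose and 6 fell (1, 2, 4 and 2 rises and 3, 3, 3 and 4 falls in turn, 7 and 4 under total-count scaling, 9 and 1 in limma). Sap18, a SIN3-associated protein, rose from 80.02 and 64.4 to 275 and 342 CPM (2.09 ± 0.36, adjusted p = 0.00163) with 348, 417 and 569 CPM under GSK-343. Gatad2b, a NuRD subunit, fell from 734 and 584 to 99.2 and 88.5 CPM (-2.81 ± 0.36, adjusted p = 0.000343, but 0.101 in limma on log2 TPM).

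Genes for the enzymes that write and read lysine acetylation were lower with TSA where they were called. Of 13 acetyltransferase genes none rose and 6 fell (Crebbp, Kat6a, Kat6b, Kat2a, Ep300 and Ncoa2). The list median minus that of all genes was -0.60, -0.60 and -0.67. Kat2a was not called under total-count scaling (adjusted p = 0.0609) or in limma on log2 TPM (adjusted p = 0.669). The counts depended on the setting (0, 1, 0 and 0 rises and 3, 4, 3 and 3 falls in turn, 2 and 4 under total-count scaling, 3 and 3 in limma). Crebbp, which encodes CBP, measured 537 and 636 CPM with DMSO and 94.2 and 48.5 CPM with TSA (-3.04 ± 0.39, adjusted p = 0.000327). Kat6a, the MOZ acetyltransferase, fell from 504 and 369 to 61.7 and 76.4 CPM (-2.66 ± 0.37, adjusted p = 0.000526). Its relative Kat6b fell from 247 and 310.2 to 65.7 and 76.0 CPM (-1.97 ± 0.41, adjusted p = 0.00425). In all 3 the TSA libraries were several-fold below both DMSO libraries. The GSK-343 libraries were low too, at 109, 107 and 108 CPM for Crebbp and 72.0, 49.0 and 61.1 CPM for Kat6a. Of 13 genes for acetyl-lysine readers and elongation control, 4 fell, Brd2, Ccnt1 and Larp7 among them, and none rose (0, 1, 0 and 0 rises and 2, 0, 1 and 0 falls in turn, 1 and 2 under total-count scaling, 4 and 1 in limma). Ccnt1 and Larp7 were not called under total-count scaling (adjusted p = 0.114 and 0.0644). Larp7 was also not called in limma on log2 TPM (adjusted p = 0.433). Brd2, a BET bromodomain protein, measured 319 and 416 CPM with DMSO, 143 and 133 CPM with TSA and 281, 270.5 and 305 CPM with GSK-343 (-1.42 ± 0.32, adjusted p = 0.00706). Limma on log2 TPM put it at 0.24 (adjusted p = 0.518). Its adjusted p was 0.06 without DMSO replicate 2 and 0.0586 without TSA replicate 2.

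Genes known from other cells to respond to deacetylase inhibitors moved in both directions, beside 13.2% rising and 14.3% falling over all genes. Of 21 tested genes listed as induced, 5 rose and 4 fell (4, 4, 5 and 4 rises and 3, 2, 3 and 3 falls in turn, 5 and 3 under total-count scaling, 8 and 1 in limma). Cdkn1a, the p21 inhibitor of cyclin-dependent kinases and a classical gene induced by such inhibitors, was lower, at 299 and 312 CPM with DMSO and 44.4 and 43.7 CPM with TSA (-2.79 ± 0.46, adjusted p = 0.00141), with 51.1, 117 and 147 CPM under GSK-343. Txnip, the thioredoxin-interacting protein, rose from 109 and 84.4 to 294 and 1504 CPM (3.22 ± 0.59, adjusted p = 0.00233). Its 2 TSA libraries were far apart, and the fold change was 4.02 without TSA replicate 1 and 1.63 without TSA replicate 2. Clu, the chaperone clusterin, rose from 541 and 442 to 2026 and 1621 CPM (1.89 ± 0.35, adjusted p = 0.0025), with 2336, 2444 and 3628 CPM under GSK-343. Cryab, a small heat shock protein, fell from 384 and 380.5 to 74.3 and 10.7 CPM (-3.17 ± 0.65, adjusted p = 0.0043, 0.0515 in limma on log2 TPM). Its fold change was -5.10 without TSA replicate 1 and -2.34 without TSA replicate 2.

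Several hair cell genes were higher with TSA, and highest in TSA replicate 1, while other hair cell transcription factors fell. Pou4f3, a POU-domain factor that hair cells need to survive, measured 3.84 and 16.5 CPM with DMSO and 574 and 91.8 CPM with TSA (5.04 ± 0.92, adjusted p = 0.00228). Gfi1, a zinc-finger factor of hair cells, measured 3.54 and 0.344 CPM with DMSO and 117 and 15.8 CPM with TSA (5.03 ± 1.08, adjusted p = 0.00546). Atoh1, the factor that starts the hair cell program, measured 7.38 and 8.26 CPM with DMSO and 58.5 and 15.4 CPM with TSA (2.24 ± 0.61, adjusted p = 0.017). Both TSA libraries lay above both DMSO libraries in each of these genes, as in 4364 of all 13050 tested. In all 3, TSA replicate 1 was several-fold above replicate 2. The GSK-343 libraries overlapped the TSA range in all 3, with 264, 92.4 and 369 CPM for Pou4f3 and 43.7, 48.6 and 48.5 CPM for Atoh1. In sorted bulk samples, more cells of a type and more RNA of that type per cell cannot be told apart. Without TSA replicate 1 the fold change was 3.25 for Pou4f3, which was still called, 3.02 for Gfi1 (adjusted p = 0.082) and 1.04 for Atoh1 (adjusted p = 0.295). The adjusted p of Atoh1 was also 0.0883 and 0.0673 without DMSO replicate 1 and 2, and the fold change of Gfi1 ranged from 4.22 without DMSO replicate 2 to 7.44 without DMSO replicate 1. Pou4f3 moved to 4.34 and 6.43 without DMSO replicate 1 and 2 and to 5.86 without TSA replicate 2. For hair cell transcription factors, the list median minus that of all genes was 0.21, 0.21 and 0.26, but -0.54 without TSA replicate 1. Of 18 tested hair cell transcription factors 5 rose and 4 fell (2, 3, 1 and 6 rises and 1, 1, 3 and 0 falls in turn, 5 and 2 under total-count scaling, 4 and 0 in limma).

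Genes of the hair cell synapse and of calcium handling rose most often among the hair cell lists. Of 17 tested, 9 rose and none fell, against 13.2% of all genes rising. The list median minus that of all genes was 2.21, 2.21 and 1.63, but 0.70 without TSA replicate 1. Besides Calb1, the calcium buffer gene Calb2 rose from 2.95 and 1.38 to 195 and 44.8 CPM (5.74 ± 0.85, adjusted p = 0.000748). Its fold change was 4.38 without TSA replicate 1, 6.47 without TSA replicate 2 and 6.41 without DMSO replicate 1. Syt1, the calcium sensor of synaptic vesicles, rose from 54.3 and 53.4 to 316 and 257 CPM (2.41 ± 0.54, adjusted p = 0.00649, 0.0587 and 0.0518 without DMSO replicate 1 and 2). Snap91, a clathrin adaptor, rose from 22.7 and 39.3 to 191 and 111 CPM (2.29 ± 0.50, adjusted p = 0.00598, 0.0678 without DMSO replicate 1). Otof, the otoferlin of hair cell ribbon synapses, measured 35.7 and 19.3 CPM with DMSO and 326 and 33.1 CPM with TSA, and passed the test (adjusted p = 0.0364) although its groups overlapped. The summed level of the list was 383 and 401 CPM with DMSO, 2699 and 937 CPM with TSA and 923, 404 and 1059.8 CPM with GSK-343. The counts depended on single libraries (4, 4, 4 and 10 rises and 0, 0, 0 and 0 falls in turn, 9 and 0 under total-count scaling, 7 and 0 in limma).

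Of 32 tested hair bundle genes, 7 rose and 2 fell (3, 2, 3 and 11 rises and 1, 1, 3 and 1 falls in turn, 11 and 1 under total-count scaling, 11 and 1 in limma). Clrn1, the clarin of Usher syndrome, measured 1.77 and 2.75 CPM with DMSO, 302 and 40.8 CPM with TSA and 45.9, 19.9 and 125 CPM with GSK-343 (6.23 ± 1.08, adjusted p = 0.00173). Its fold change was 4.22 without TSA replicate 1 and 7.08 without TSA replicate 2, and its DMSO libraries held only 6 and 8 counts. Myo7a, the myosin of the bundle, measured 22.7 and 5.17 CPM with DMSO and 189 and 26.8 CPM with TSA (adjusted p = 0.0301). Triobp, which bundles actin in stereocilia rootlets and in supporting cells, fell from 329 and 231 to 69.3 and 23.5 CPM (-2.59 ± 0.54, adjusted p = 0.00444), or by 3.52 without TSA replicate 1 and 1.99 without TSA replicate 2. For the hair bundle list, the median minus that of all genes was 1.24, 1.245 and 0.75, but -0.22 without TSA replicate 1. Whether the sorted TSA fractions held more hair cells than the DMSO fractions was not tested.

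Supporting cell genes were present in every library, and those that were called were lower with TSA. Of 15 tested markers, 5 fell (Fabp7, Cdkn1b, Prox1, Jag1 and Sox2) and none rose, against 14.3% of all genes falling (0, 0, 1 and 0 rises and 4, 4, 5 and 4 falls in turn, 2 and 4 under total-count scaling, 3 and 3 in limma). The median of these markers minus that of all genes was -1.07, -1.07 and -0.77. Their summed level was 11388 and 8958 CPM with DMSO, 6116 and 4979 CPM with TSA and 11913, 15928 and 15603 CPM with GSK-343. Prox1, a homeobox factor of pillar and Deiters cells, measured 2337 and 1687 CPM with DMSO and 320.1 and 196 CPM with TSA (-2.96 ± 0.47, adjusted p = 0.00109), with 776, 341 and 342 CPM under GSK-343. Jag1, the Notch ligand of supporting cells, fell from 2036 and 1333 to 401 and 490.1 CPM (-1.92 ± 0.36, adjusted p = 0.00241, 0.0533 in limma on log2 TPM). Sox2, the prosensory factor, measured 247 and 239.7 CPM with DMSO and 129 and 115 CPM with TSA (-0.99 ± 0.32, adjusted p = 0.0345). Limma on log2 TPM put Sox2 at 0.28 (adjusted p = 0.486), and leaving out 1 DMSO or TSA library gave adjusted p from 0.106 to 0.212. Hes5 and Lfng, further markers, did not pass the test, with log2 fold changes of -0.43 ± 0.32 and -0.40 ± 0.36 and adjusted p of 0.338 and 0.441. With GSK-343, Hes5 measured 813, 962 and 677 CPM against 472 and 397 CPM with DMSO and 338 and 308 CPM with TSA.

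**Figure D4:**
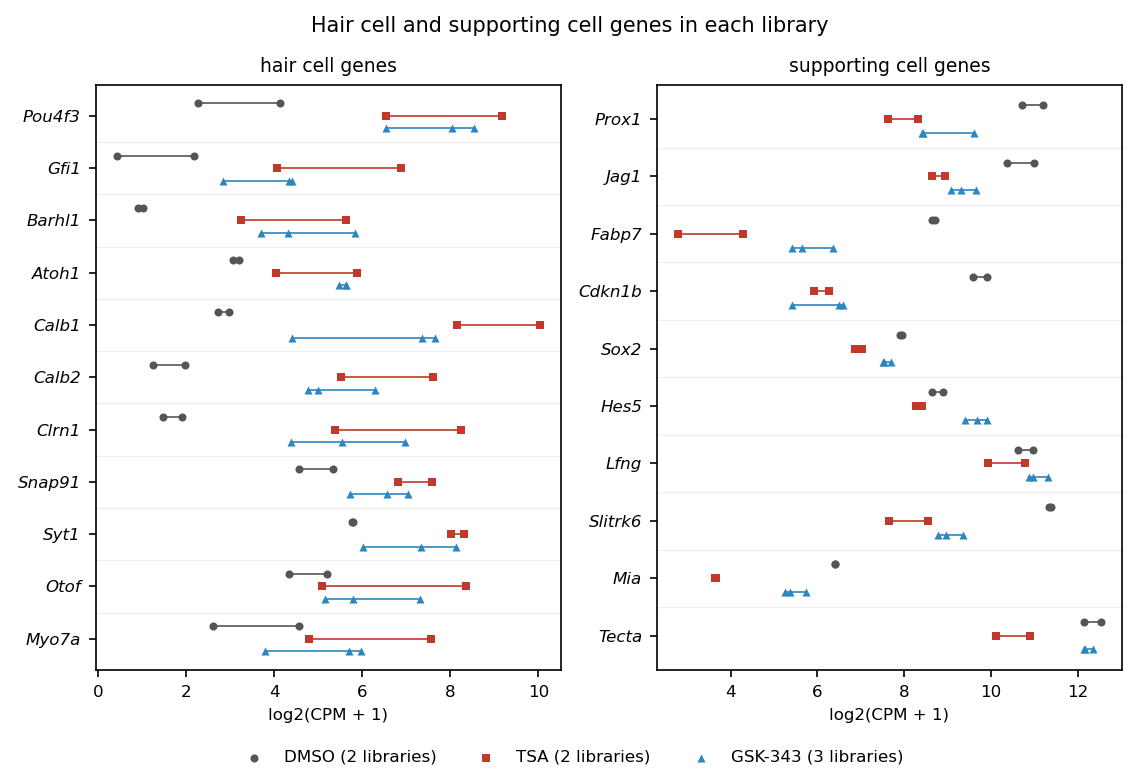
Expression as log2(CPM + 1) in each library of 11 hair cell genes (left) and 10 supporting cell genes (right). The wide TSA lines on the left come from TSA replicate 1 lying above replicate 2, while on the right the TSA squares lie below the DMSO circles for Prox1, Jag1, Fabp7, Cdkn1b, Slitrk6, Mia and Tecta and close to them for Hes5 and Lfng.

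Genes of pillar and Deiters cells and prosensory factors were also lower more often than higher under the TMM scaling. Of 20 tested pillar and Deiters cell genes, 10 fell and 2 rose (0, 1, 0 and 1 rises and 4, 6, 10 and 4 falls in turn, 3 and 6 under total-count scaling, 6 and 3 in limma). Their median minus that of all genes was -1.15, -1.15 and -1.12. Slitrk6, a neurotrophic membrane protein of the cochlea, measured 2698 and 2584 CPM with DMSO, 374 and 198 CPM with TSA and 653, 498 and 435 CPM with GSK-343 (-3.21 ± 0.40, adjusted p = 0.000274). Mia, a small secreted protein, fell from 83.3 and 84.4 to 11.5 and 11.4 CPM (-2.87 ± 0.44, adjusted p = 0.000923), with 40.6, 37.3 and 52.2 CPM under GSK-343. Of 15 tested genes of the medial domain (Kolliker's organ), 4 fell and 2 rose (2, 2, 3 and 2 rises and 3, 3, 3 and 3 falls in turn, 3 and 3 under total-count scaling, 4 and 1 in limma). Their median minus that of all genes was -0.37, -0.37 and -0.04. Of 22 prosensory transcription factors, 11 fell and none rose (0, 0, 0 and 0 rises and 6, 8, 9 and 6 falls in turn, 1 and 7 under total-count scaling, 3 and 2 in limma). The median of this list minus that of all genes was -1.05, -1.05 and -0.83. Gata3, a zinc-finger factor needed for the organ of Corti, fell from 1344 and 1264 to 547 and 252 CPM (-1.71 ± 0.38, adjusted p = 0.00622; -2.31 without TSA replicate 1), with 971, 956 and 945 CPM under GSK-343. Emx2, a homeobox factor, fell from 180.4 and 187 to 48.7 and 33.1 CPM (-2.17 ± 0.39, adjusted p = 0.00199, 0.133 in limma on log2 TPM).

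Tectorial membrane genes, whose products are secreted over the sensory epithelium, had the highest share of falls among the lists drawn, with 8 of 12 lower and none higher (0, 0, 0 and 0 rises and 5, 5, 5 and 6 falls in turn, 0 and 5 under total-count scaling, 1 and 4 in limma). Their median minus that of all genes was -1.22, -1.22 and -0.98. Otogl, an otogelin-like glycoprotein, measured 769 and 572 CPM with DMSO, 55.9 and 32.7 CPM with TSA and 43.7, 50.8 and 43.4 CPM with GSK-343 (-3.92 ± 0.40, adjusted p = 8.56e-05). Tecta, the alpha-tectorin matrix protein, measured 5940.4 and 4572 CPM with DMSO, 1898 and 1102 CPM with TSA and 5242, 4557 and 4647 CPM with GSK-343 (-1.81 ± 0.36, adjusted p = 0.0038, 0.781 in limma on log2 TPM). The 2 genes differed in their GSK-343 libraries, which lay near TSA for Otogl and near DMSO for Tecta. Among 25 collagens 7 fell and 3 rose (2, 2, 2 and 2 rises and 5, 5, 5 and 4 falls in turn, 6 and 6 under total-count scaling, 6 and 4 in limma). Col9a3, a collagen of the tectorial membrane, fell from 423 and 648 to 78.3 and 47.8 CPM (-3.09 ± 0.47, adjusted p = 0.000851). Col4a3, a basement membrane collagen, fell from 97.4 and 67.5 to 8.66 and 7.71 CPM (-3.33 ± 0.66, adjusted p = 0.0035). By contrast Col5a1, a fibrillar collagen, rose from 4.43 and 6.20 to 53.4 and 40.8 CPM (3.14 ± 0.60, adjusted p = 0.00279). TSA and DMSO libraries did not overlap in any of these 3 collagens, as in most tested genes. Lama2, a laminin chain, and Itgb3, an integrin subunit, fell by 3.30 and 3.31 on the log2 scale. Marveld3, a tight junction protein, fell from 211 and 294 to 55.2 and 28.7 CPM (-2.59 ± 0.42, adjusted p = 0.00118). The claudin gene Cldn7 rose from 18.0 and 26.2 to 109.7 and 98.8 CPM (2.24 ± 0.38, adjusted p = 0.00146), with 691, 561 and 931 CPM under GSK-343.

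Markers of other cell types were low or did not move together. Of 11 tested spiral ganglion neuron markers 3 rose (Calb2, Snap25 and Nefl, of which Calb2 and Snap25 are also on hair cell or synaptic lists) and Gata3 fell. The summed level of this list was 1601 and 1559.5 CPM with DMSO and 1186 and 572 CPM with TSA, and the 3 rises and 1 fall held with each DMSO or TSA library left out. Most of the DMSO sum came from Gata3. The median of this list minus that of all genes was above 0, at 1.22, 1.23 and 0.73. Prph and Th were too low to test. Of 8 Schwann and satellite glia markers Mbp rose and Sox10 and Fabp7 fell, and Foxd3 was too low to test. Without DMSO replicate 1 Mbp was not called (adjusted p = 0.0516). Sox10, a factor of glia that supporting cells also express, measured 229 and 292 CPM with DMSO, 27.4 and 8.08 CPM with TSA and 35.6, 102 and 75.9 CPM with GSK-343 (-3.87 ± 0.60, adjusted p = 0.00101). Its fold change was -4.94 without TSA replicate 1 and -3.22 without TSA replicate 2. Of 8 mesenchyme markers only Pou3f4 passed, and its adjusted p was from 0.0657 to 0.162 with any 1 DMSO or TSA library left out and 0.208 with libraries thinned to equal totals. The summed level was 220.3 and 242 CPM with DMSO and 349 and 141 CPM with TSA. Macrophage markers summed to 14.2 and 28.6 CPM with DMSO and 4.69 and 6.25 CPM with TSA, with 3 of 9 tested and none called. Endothelium markers summed to 48.4 and 46.8 CPM and 15.5 and 11.4 CPM, with 4 of 8 tested and Emcn lower. The adjusted p of Emcn was 0.156 without DMSO replicate 1, 0.0763 and 0.254 without TSA replicate 1 and 2, 0.0609 in limma and 0.0525 with the replicate number as a block. Melanocyte markers (3 of 7 tested), marginal cell markers (3 of 7) and red blood cell markers (1 of 6) gave no call under the TMM scaling. Mlana, Tyrp1 and Hbb-bt were at 0 in all DMSO and TSA libraries, and the sums of these 3 lists were at most 55.6 CPM in any DMSO or TSA library. The part of these cells in the results was not tested.

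Lists of neuronal and secretory genes differed in how often they rose, beside 13.2% rising and 14.3% falling over all genes. Of 26 tested genes of synaptic vesicles and granules, 9 rose and 2 fell (8, 8, 6 and 9 rises and 2, 2, 2 and 1 falls in turn, 9 and 2 under total-count scaling, 12 and 0 in limma). Their median minus that of all genes was 1.26, 1.26 and 0.98. Besides Scg5, Snap25 and Sv2a, the granule protein gene Chga rose from 0.886 and 2.07 to 52.3 and 19.5 CPM (4.59 ± 0.84, adjusted p = 0.00223), with 11.3, 18.4 and 28.0 CPM under GSK-343. Its fold change was 3.76 without TSA replicate 1 and 5.29 without DMSO replicate 2. Stmn2, a microtubule-destabilising stathmin of growing axons, measured 18.3 and 17.6 CPM with DMSO, 139 and 124 CPM with TSA and 2.47, 3.98 and 2.28 CPM with GSK-343 (2.87 ± 0.45, adjusted p = 0.001). TSA and GSK-343 libraries thus lay on opposite sides of DMSO for Stmn2, and TSA minus GSK-343 was 5.48 ± 0.44 (adjusted p = 0.00014). Of 21 genes of the neurite cytoskeleton 6 rose and 4 fell (4, 5, 5 and 4 rises and 3, 3, 3 and 3 falls in turn, 7 and 3 under total-count scaling, 9 and 0 in limma). Their summed level was 3313 and 3678 CPM with DMSO and 2146 and 1866 CPM with TSA, lower in both TSA libraries. The list median minus that of all genes was instead above 0, at 0.69, 0.70 and 0.55, and 0.18 without TSA replicate 1. Nefl, the light neurofilament chain, and Crmp1, a collapsin response mediator, had at most 4 counts in each DMSO library and measured 94.5 and 33.4 CPM and 96.0 and 41.9 CPM with TSA. Both passed the test (adjusted p = 0.00115 and 0.000177), but so few counts fix no fold. Of 29 neuronal adhesion genes and synapse organisers 5 rose and 3 fell (2, 1, 2 and 4 rises and 1, 3, 3 and 2 falls in turn, 6 and 2 under total-count scaling, 7 and 1 in limma), and their sum went from 5454 and 5016 to 2496 and 1838 CPM. Of 18 potassium channel genes 3 rose and 3 fell (1, 0, 1 and 0 rises and 2, 1, 1 and 1 falls in turn, 4 and 2 under total-count scaling, 6 and 1 in limma). For the neuronal adhesion list the median minus that of all genes was 0.21, 0.22 and -0.25. Ncam1, the neural cell adhesion molecule, rose from 31.0 and 68.9 to 215 and 209.8 CPM (2.09 ± 0.42, adjusted p = 0.00391; 2.78 without DMSO replicate 2), with 63.1, 67.6 and 85.9 CPM under GSK-343. Scn3b, a beta subunit of sodium channels, rose from 0.886 and 2.75 to 47.3 and 39.3 CPM (4.56 ± 0.98, adjusted p = 0.00544; 3.96 and 5.55 without DMSO replicate 1 and 2) and measured 2.82, 1.84 and 11.4 CPM with GSK-343.

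Among signalling genes, those of the Wnt pathway fell most often. Of 31 tested Wnt pathway genes 13 fell and 2 rose (0, 0, 1 and 1 rises and 9, 9, 10 and 9 falls in turn, 2 and 12 under total-count scaling, 4 and 5 in limma). Their median minus that of all genes was -1.30, -1.29 and -1.28. For TSA minus GSK-343 the list median was -0.34. Mean log2 CPM of the list was 6.35 and 6.84 with DMSO, 5.66 and 5.49 with TSA and 5.95, 5.89 and 5.69 with GSK-343. Tcf7l2, a transcription factor that binds beta-catenin, measured 389 and 434 CPM with DMSO, 67.8 and 46.7 CPM with TSA and 47.6, 97.3 and 71.9 CPM with GSK-343 (-2.84 ± 0.41, adjusted p = 0.000669). Lgr6, an R-spondin receptor, fell from 255 and 198 to 42.6 and 39.3 CPM (-2.47 ± 0.38, adjusted p = 0.000892). Znrf3, the ligase that removes Frizzled receptors, fell from 155 and 265 to 42.6 and 31.6 CPM (-2.50 ± 0.41, adjusted p = 0.00134). A receptor gene that promotes the signal and the gene of a negative regulator both fell. The counts of the lists that follow stand beside 13.2% rising and 14.3% falling over all genes. Of 26 Notch receptors, ligands and modulators 6 fell and 4 rose (1, 1, 1 and 2 rises and 3, 5, 5 and 3 falls in turn, 4 and 4 under total-count scaling, 8 and 0 in limma). Dtx1, a Deltex ubiquitin ligase, had no count in the DMSO libraries and measured 28.5 and 31.2 CPM with TSA, at least 31.1-fold higher with the floor of 3 counts per DMSO library, and 1.41, 6.43 and 1.997 CPM with GSK-343. Of 11 genes of the Hes, Hey and Id families Hey1 and Id3 fell (1 rise and 2 falls under total-count scaling, 3 and 1 in limma). The adjusted p of Id3 was 0.0841 without TSA replicate 2 and 0.658 in limma. Of 19 FGF pathway genes 4 fell and 2 rose (1, 2, 2 and 2 rises and 1, 2, 3 and 1 falls in turn, 2 and 2 under total-count scaling, 4 and 1 in limma). Spry2, a feedback inhibitor, fell from 255 and 309.9 to 34.3 and 31.2 CPM (-3.11 ± 0.39, adjusted p = 0.000315). Dusp5, a nuclear ERK phosphatase, rose from 2.95 and 15.2 to 79.8 and 94.4 CPM (3.28 ± 0.68, adjusted p = 0.00444; 2.53 and 4.87 without DMSO replicate 1 and 2). Of 25 TGF-beta and BMP genes 6 fell and 4 rose (2, 2, 3 and 2 rises and 3, 5, 4 and 4 falls in turn, 4 and 5 under total-count scaling, 6 and 2 in limma). The signal transducer Smad3 went from 2.36 and 3.10 to 42.6 and 29.8 CPM (3.71 ± 0.61, adjusted p = 0.00134). The receptor gene Bmpr2 fell from 588 and 561 to 119 and 107 CPM (-2.35 ± 0.44, adjusted p = 0.00254). In these 4 genes of the FGF and TGF-beta lists, both TSA libraries lay on the same side of both DMSO libraries, as in most tested genes. Of 17 planar cell polarity genes 7 fell and 2 rose (0, 0, 0 and 0 rises and 2, 3, 5 and 3 falls in turn, 2 and 5 under total-count scaling, 2 and 0 in limma). Vangl2, a core polarity protein, fell from 415 and 424 to 105 and 70.9 CPM (-2.25 ± 0.35, adjusted p = 0.000989, 0.223 in limma on log2 TPM).

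Of 4 tested inhibitors of cyclin-dependent kinases, Cdkn1a and Cdkn1b fell, and both did so with each DMSO or TSA library left out. Cdkn1b, the p27 inhibitor that keeps supporting cells out of the cycle, measured 967 and 767 CPM with DMSO, 76.1 and 59.1 CPM with TSA and 95.9, 88.7 and 41.4 CPM with GSK-343 (-3.68 ± 0.44, adjusted p = 0.000222), and Cdkn1a fell as given above. Ccne1, the cyclin E of S phase entry, rose from 0.591 and 2.75 to 90.6 and 99.9 CPM (5.84 ± 0.67, adjusted p = 0.000179; 5.10 and 7.25 without DMSO replicate 1 and 2), with 13.4, 12.5 and 16.6 CPM under GSK-343. Of 22 tested S phase genes 3 rose, a share near that of all genes, and of 13 G2 and M phase genes Cdk1 and Prc1 rose (0, 0, 2 and 0 rises and 0, 0, 0 and 0 falls in turn, 2 and 0 under total-count scaling, 2 and 0 in limma). Cdk1, the mitotic kinase, had no count with DMSO and 3.97 and 12.9 CPM with TSA, at least 8.77-fold higher with the floor of 3 counts per DMSO library. Its adjusted p of 0.00924 went to 0.0634 and 0.0527 without DMSO replicate 1 and 2 and to 0.146 without TSA replicate 2. For Prc1, a protein of the spindle midzone, it was 0.0836 and 0.0788 without DMSO replicate 1 and 2 and 0.405 without TSA replicate 2, where the fold change was 1.66 against 3.70 with all libraries. The proliferation marker Mki67 measured 13.6 and 10.7 CPM with DMSO and 3.25 and 5.14 CPM with TSA (adjusted p = 0.229). Trp53, the p53 tumour suppressor, fell from 67.0 and 82.6 to 18.8 and 11.8 CPM (-2.29 ± 0.42, adjusted p = 0.00225, 0.0995 in limma on log2 TPM) and measured 86.8, 118 and 97.3 CPM with GSK-343. Bid, a BH3-only death protein, rose from 0.886 and 3.10 to 37.5 and 57.7 CPM (4.58 ± 0.75, adjusted p = 0.00132; 3.93 and 5.69 without DMSO replicate 1 and 2). Of 18 apoptosis regulators 2 rose and 2 fell, near the 13.2% and 14.3% over all genes.

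Of 30 histone methyltransferases and demethylases 12 fell and 4 rose (0, 2, 1 and 2 rises and 6, 7, 6 and 4 falls in turn, 4 and 8 under total-count scaling, 8 and 3 in limma). Kmt2d, a methyltransferase of enhancer histone H3, measured 800.5 and 939 CPM with DMSO, 62.1 and 26.1 CPM with TSA and 30.3, 92.7 and 48.5 CPM with GSK-343 (-4.30 ± 0.56, adjusted p = 0.000391; -5.00 without TSA replicate 1). Its relative Kmt2b fell from 116 and 117 to 32.5 and 14.3 CPM (-2.32 ± 0.45, adjusted p = 0.00305; -2.97 without TSA replicate 1). Setd1b fell from 92.7 and 99.2 to 18.0 and 3.67 CPM (-3.14 ± 0.61, adjusted p = 0.00319), or by 4.63 without TSA replicate 1 and 2.38 without TSA replicate 2. The GSK-343 libraries lay nearer to DMSO for Kmt2b, at 89.2, 77.7 and 63.6 CPM. Of 12 DNA methylation genes 4 fell and none rose (0, 0, 0 and 0 rises and 3, 3, 3 and 3 falls in turn, 0 and 3 under total-count scaling, 3 and 1 in limma). The sum of this list was 1588 and 1454 CPM with DMSO and 676 and 637 CPM with TSA. With GSK-343 it was also low, at 722, 648 and 564 CPM. Dnmt3a, a de novo methyltransferase, fell from 396 and 479 to 84.8 and 49.6 CPM (-2.70 ± 0.40, adjusted p = 0.000756). The 3 Tet dioxygenase genes were also called lower, at fold changes of -2.26, -1.78 and -1.78, but not in limma on log2 TPM (adjusted p = 0.129, 0.53 and 0.103). Tet2 was also not called with any 1 DMSO or TSA library left out (adjusted p from 0.0691 to 0.128) or under total-count scaling (adjusted p = 0.0613). Of 32 homeobox cluster genes none had enough counts to be tested, and their summed level was 10.9 and 19.6 CPM with DMSO and 1.80 and 7.71 CPM with TSA.

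Of 26 oxidative phosphorylation subunits 9 rose and 2 fell (3, 6, 6 and 5 rises and 0, 0, 0 and 0 falls in turn, 10 and 0 under total-count scaling, 17 and 0 in limma). Cox4i1, a subunit of cytochrome c oxidase, measured 68.8 and 56.1 CPM with DMSO, 465 and 385 CPM with TSA and 592, 703 and 993 CPM with GSK-343 (2.76 ± 0.37, adjusted p = 0.000422). Ndufs1, of complex I, measured 45.2 and 51.0 CPM with DMSO, 194 and 288 CPM with TSA and 226, 181 and 154 CPM with GSK-343 (2.32 ± 0.37, adjusted p = 0.00115). For both genes the GSK-343 libraries also lay above DMSO. Gapdh, often used as a reference gene, was itself higher, at 74.4 and 109 CPM with DMSO, 537 and 395 CPM with TSA and 837, 1412 and 982 CPM with GSK-343 (2.35 ± 0.38, adjusted p = 0.0012). Actb did not pass the test (-0.84 ± 0.37, adjusted p = 0.105). Of 29 lysosome genes 6 rose and 3 fell (5, 4, 5 and 6 rises and 0, 1, 0 and 0 falls in turn, 12 and 0 under total-count scaling, 17 and 0 in limma). The lysosome list summed to 4044 and 3751 CPM with DMSO, 6302 and 6087 CPM with TSA and 6849, 7792 and 8277 CPM with GSK-343. The protease gene Ctsl rose from 126 and 169 to 420.1 and 664 CPM (1.88 ± 0.35, adjusted p = 0.00256). Unlike the list sum, Ctsl stayed near DMSO under GSK-343, at 163, 194 and 185 CPM. Of 43 ribosomal protein genes 14 rose and 4 fell (5, 10, 14 and 9 rises and 2, 3, 2 and 3 falls in turn, 17 and 3 under total-count scaling, 34 and 0 in limma). The list sum was 7355 and 7404 CPM with DMSO, 10622 and 14539 CPM with TSA and 18533, 23598 and 25475 CPM with GSK-343. These genes have many processed pseudogenes, and no ribosomal protein gene was tested among the genes with whole counts in all libraries, so their values are uncertain.

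Of 21 unfolded protein response genes 9 fell and 1 rose (1, 1, 2 and 1 rises and 3, 4, 3 and 4 falls in turn, 2 and 4 under total-count scaling, 5 and 2 in limma). Hsp90b1, the chaperone of the endoplasmic reticulum known as GRP94, measured 1782 and 2120.1 CPM with DMSO, 304 and 682 CPM with TSA and 574, 527 and 632 CPM with GSK-343 (-1.99 ± 0.39, adjusted p = 0.00341; -2.66 without TSA replicate 2). Manf, a secreted factor induced by stress of that compartment, rose instead, from 98.6 and 94.7 to 480.0 and 919 CPM (2.85 ± 0.38, adjusted p = 0.000422) with 984, 969.6 and 1163 CPM under GSK-343. Of 16 heat shock and chaperone genes 8 fell and 2 rose (2, 1, 1 and 1 rises and 5, 6, 4 and 4 falls in turn, 3 and 4 under total-count scaling, 6 and 2 in limma). The list median was -0.91 for TSA minus DMSO but 0.19 for TSA minus GSK-343, where the read layout is shared. Mean log2 CPM of the list was 7.312 and 7.1745 with DMSO, 6.502 and 6.431 with TSA and 6.2085, 6.399 and 6.566 with GSK-343. The list sum was instead highest with GSK-343, at 5849, 6912 and 7531 CPM against 4455 and 4568 CPM with DMSO and 4322 and 4221.5 CPM with TSA. Hsf1, the master factor of the heat shock response, fell from 63.2 and 34.1 to 1.80 and 1.84 CPM (-4.71 ± 0.82, adjusted p = 0.00176). The constitutive chaperone gene Hspa8 rose from 414 and 217 to 1182 and 1300.1 CPM (1.98 ± 0.39, adjusted p = 0.00322). Of 23 immediate early genes 6 rose and 5 fell (2, 3, 4 and 4 rises and 3, 1, 2 and 4 falls in turn, 6 and 3 under total-count scaling, 7 and 0 in limma). Fos, a subunit of the AP-1 factor, rose from 181 and 137 to 879 and 1068 CPM (2.61 ± 0.37, adjusted p = 0.000587), with 1078, 644 and 1030.4 CPM under GSK-343.

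Of 9 tested genes of class I antigen presentation 4 rose and none fell, and 3 rose with any 1 DMSO or TSA library left out. H2-D1, a classical class I heavy chain, measured 5.91 and 1.72 CPM with DMSO, 66.0 and 72.0 CPM with TSA and 1.76, 8.87 and 5.99 CPM with GSK-343 (4.15 ± 0.79, adjusted p = 0.00282; 5.30 and 3.54 without DMSO replicate 1 and 2). Tap1, a subunit of the peptide transporter, had no count with DMSO and 17.0 and 20.6 CPM with TSA, at least 19.6-fold higher with the floor of 3 counts per DMSO library. The list sum was 150 and 114 CPM with DMSO, 374 and 332 CPM with TSA and 327, 399 and 386 CPM with GSK-343. The list median of TSA minus GSK-343 was 0.96. Under total-count scaling 5 rose and none fell, and in limma on log2 TPM 7 rose and none fell. Class I heavy chain genes are near copies of each other, so their counts are uncertain.

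**Figure D5:**
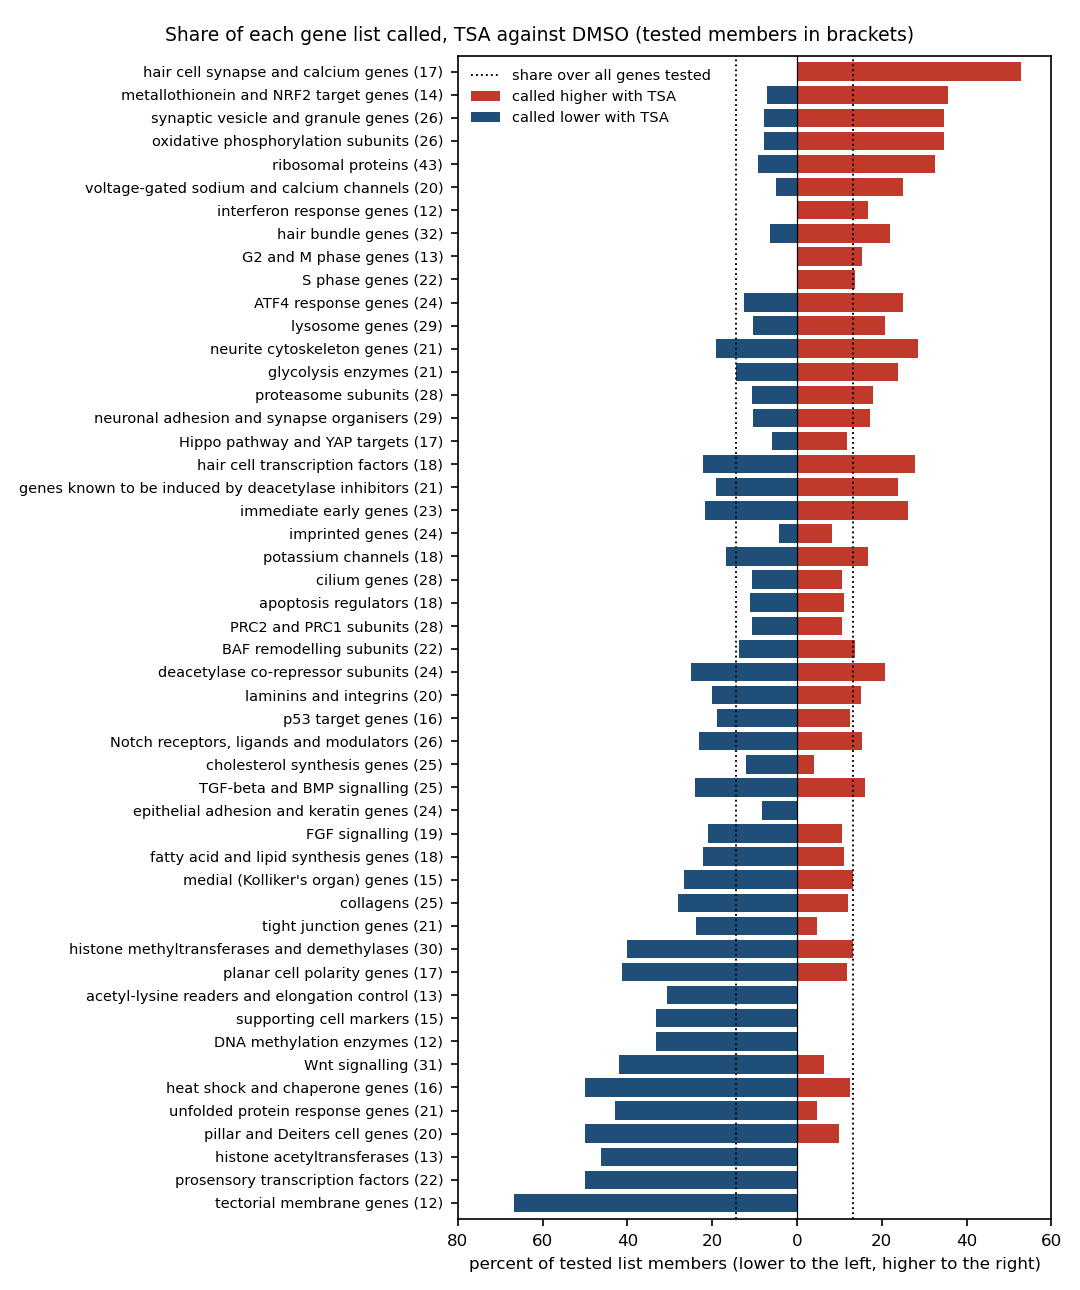
Percent of the tested members of each gene list that were called higher (red, to the right) or lower (blue, to the left) with TSA, for the 50 lists with at least 12 tested members (number in brackets), under the TMM scaling. Dotted lines mark the shares over all genes tested, 13.2% higher and 14.3% lower; tectorial membrane genes (8 of 12 lower) and hair cell synapse and calcium genes (9 of 17 higher) stand at the ends.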

How the data were processed

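RNA of sorted supporting cells was sequenced in 7 libraries. Per the file headers, the authors deposited RSEM tables per library with gene length, effective length, expected counts and TPM; STAR, RSEM, DESeq2 and the mm10 build stand in the submitters' processing notes without versions. Expected counts were rounded to whole numbers. Gene class, symbol and position came from GENCODE M21, which matched 48349 of 48709 identifiers, and 537 protein-coding genes of at most 500 bases and 13 mitochondrial ones were left out. A model with 1 term per treatment was fitted to all 7 libraries (4 residual degrees of freedom) with edgeR 4.0.16 in R 4.3.3, using TMM scaling, edgeR's default filter on low counts and the quasi-likelihood test, with Benjamini-Hochberg adjustment over 13050 genes. The standard error is the log2 fold change divided by the square root of F. Figures were drawn with matplotlib 3.10.9.

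Named genes were the 12 with the largest change per direction with mean log2 CPM no lower than 4 and groups that did not overlap, the 10 per direction with the smallest adjusted p whose GSK-343 mean was within 2-fold of DMSO, up to 4 members per gene list, and some fixed genes. Of 276 such genes, 231 were called and 113 kept call and direction under every alternative that gave them a value (for most, not the one on whole counts), and the text describes mainly the latter. The values of Otof and Myo7a, and which list members stand by name alone, were picked with their values in view. The comparison and the gene lists were chosen with earlier results of these data known. On simulated data 200 of 13050 genes were changed, drawn from genes above a minimum level. There the TSA against DMSO test recovered 1.49% of 2-fold, 44.8% of 4-fold and 77.3% of 8-fold changes, with 4 false calls. The simulation changed far fewer genes than the 27.4% called in the data and held no difference in read layout. Its rates therefore do not carry over to this comparison. Counts of the DMSO pair and of the TSA pair differed beyond sampling noise (chi-square per degree of freedom of 21.7 and 17.0), so neither pair was taken for 1 library deposited 2 times. Whether they are separate biological replicates cannot be read from this. Alternatives changed the scaling, filter, gene classes, depth, test (DESeq2 1.42.0, limma 3.58.1 on log2 of TPM plus 1), GC and length correction, replicate block, threshold and library left out. Some genes of these lists are not reported here.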

Additional observations from a re-analysis of the deposited data

How the results depend on the processing

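Among 23 alternatives, no gene called under the TMM scaling was called in the other direction, except 2 of 2290 in limma on log2 TPM. The counts of 1717 higher and 1861 lower genes stayed within 1.5 times under DESeq2's size factors (1736 and 1812), no filter (1950 and 2058), a filter of 50 counts (1596 and 1583), the DMSO and TSA libraries alone (1794 and 2062), thinned libraries (1540 and 1623), the DESeq2 test (1954 and 1911) and a correction for GC and length (1825 and 1962). Total-count scaling gave 2533 and 1284, so 66.4% of calls were higher against 48.0%, and limma on log2 TPM gave 4717 and 1029, or 82.1%. The genes with whole counts gave 304 and 314, of fewer genes tested, and an adjusted p threshold of 0.01 gave 711 and 808. With 1 library left out the counts ran from 782 (without DMSO replicate 1) to 2062 (without GSK-343 replicate 1) higher genes and from 682 (without TSA replicate 2) to 2246 (without GSK-343 replicate 1) lower genes. In limma on log2 TPM the fold change of Brd2 (0.24), Mib1 (0.45), Kcnj10 (0.0028), Itgav (0.99), Cdh1 (0.091), Tjp1 (0.29) and Sox2 (0.28) was above 0, with the median of all genes at 0.86; the cause was not tested.

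The replicate numbers do not pair the samples in the sources used here, and deviations of same-numbered DMSO and TSA libraries had a correlation of -0.020. A fit with the replicate block gave 1595 higher and 1665 lower genes, and 1647 and 1698 with a GC and length correction. Depth and 2 replicates per group limit the comparison to large changes, and read layout cannot be told apart from treatment.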
